A study of Mus musculus with 12 samples.

Results

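A pair of lists of Argonaute 2 (Ago2) chimeric peaks from adult mouse forebrain was set against each other, peak by peak. Both came from an antibody against Ago2 used on whole forebrain of C57BL/6 mice, the first from replicates 1 to 4 (reps 1-4) and the second from replicates 5 to 7 (reps 5-7). A peak is a stretch of target RNA to which reads of 1 small RNA were joined. A peak of one list counted as recovered when the other list held one of the same small RNA, on the same strand and with at least 1 base in common. All 249791 peaks of both lists entered the comparison, 246180 from reps 1-4 and 3611 from reps 5-7, out of 250567 peaks in the whole series.

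The labels describe 12 samples, of which 7 belong to these lists. The treatment text is the same for every sample. It names a cross of B6Tg(Camk2a-Cre/ERT2) mice with a line that carries CAG-GFP/Eif2c2 at Gt(ROSA)26Sor, in which Cre in excitatory neurons turns on a tagged Ago2. Tamoxifen was injected at 2 mg a day over 5 days, and tissue was taken 14 to 21 days later at an age of 10 to 12 weeks. The sources used here do not say whether the mice of the anti-Ago2 samples carried these alleles, nor whether each library came from a single mouse. Each list is 1 pooled observation, so no value below has a spread between replicates, and no p-value is given. The lists share 0 library labels in the calling summaries, but the labels of each list follow a different naming scheme. Whether any batch spans both lists is not shown by them, so batch and list cannot be told apart.

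MicroRNAs are short RNAs that guide Argonaute proteins to partly complementary sites in messenger RNAs, mostly through their seed, and lower the stability or translation of those messengers. Sites in 3' untranslated regions (UTRs) are the best known, and sites in coding sequence (CDS) occur as well. In chimeric sequencing, ligation within Argonaute joins a guide to the RNA it holds, and one read then carries both. In forebrain, miR-124-3p and miR-9-5p are known for neuronal expression and function, and the miR-29 family for high levels in mature brain.

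The small RNAs on which the results turn are shown first, so that those of 1 seed family can be set side by side. The mature sequences are from RefSeq (GRCm38.p6), 5′ to 3′, with the seed (bases 2 to 8) in capitals.
miR-29a-3p: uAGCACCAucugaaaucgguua
miR-29b-3p: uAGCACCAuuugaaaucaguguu
miR-29c-3p: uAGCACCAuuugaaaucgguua
let-7c-5p: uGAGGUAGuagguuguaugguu
let-7f-5p: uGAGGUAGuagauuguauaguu
miR-9-5p: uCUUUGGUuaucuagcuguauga
miR-26a-5p: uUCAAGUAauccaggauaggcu
miR-128-3p: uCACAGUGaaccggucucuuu
miR-127-3p: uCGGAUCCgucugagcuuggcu
The 3 miR-29 members carry 1 seed and differ only beyond it, and so do the let-7 members. The RefSeq table held 593 of the 747 small RNA names of both lists.

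The lists differed in size and in make-up. Reps 1-4 held 68.2 times as many peaks as reps 5-7 and 68.7 times its summed score, where the score is the whole number that the authors deposited for each peak. The lowest score was 3 and the median 4 in both lists, and score 3 made up 40.3% of reps 1-4 peaks and 38.1% of reps 5-7 peaks. A peak was taken as ribosomal RNA (rRNA) when its feature was rRNA or Mt-rRNA, or when it lay on the same strand as Gm42418 and at most 5000 bases away. Such peaks made up 2.06% of reps 1-4 and 19.9% of reps 5-7, so results are given with and without them. Copies of rRNA sequence elsewhere in the genome were not searched for, so peaks on such copies would count as outside rRNA. Introns held 47.6% of reps 1-4 peaks, but only 218 of the 3611 reps 5-7 peaks. Some marker genes of astrocytes, neurons and oligodendrocytes had peaks in both lists, as described further on.

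Nearly all of the short list was found again in the long one, and very little of the long list was found in the short one. Of the 3611 reps 5-7 peaks, 3160 were recovered in reps 1-4, which is 87.5% (95% Wilson interval 86.4 to 88.5). Outside rRNA the share was 88.9% (2572 of 2894), and on rRNA it was 82.0% (588 of 717). Read the other way, 3291 of 246180 reps 1-4 peaks were recovered in reps 5-7, a share of 1.34% (1.29 to 1.38). The intervals cover counting error only, and peaks of several small RNAs at 1 place are counted separately, as if independent.

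Recovery of reps 1-4 peaks rose with their score. At score 3, 34 of 99210 peaks were recovered (0.0343%), and at scores 8 to 10 the share was 0.881% (149 of 16922). It was 5.21% at 16 to 25 (403 of 7728), 14.5% at 26 to 50 (722 of 4966) and 36.5% at 51 to 99 (761 of 2087). Peaks that were recovered had a median score of 50 (quartiles 23 and 105) and a median width of 14 bases. Those that were not recovered had a median score of 4 (3 and 6) and a median width of 23 bases.

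At the top of the score range, rRNA peaks and other peaks parted. Outside rRNA the share reached 66.0% at a score of 100 or more (532 of 806, interval 62.7 to 69.2) and 78.0% at 250 or more (117 of 150). On rRNA it was 48.2% at 100 or more (352 of 731, 44.6 to 51.8) and 49.4% at 250 or more (163 of 330). The rRNA peaks of 100 or more were narrow, with a median width of 4 bases against 11 bases for the others. Even among the 3624 highest-scoring reps 1-4 peaks, those of score 51 or more, 45.4% had a partner.

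**Figure D1:**
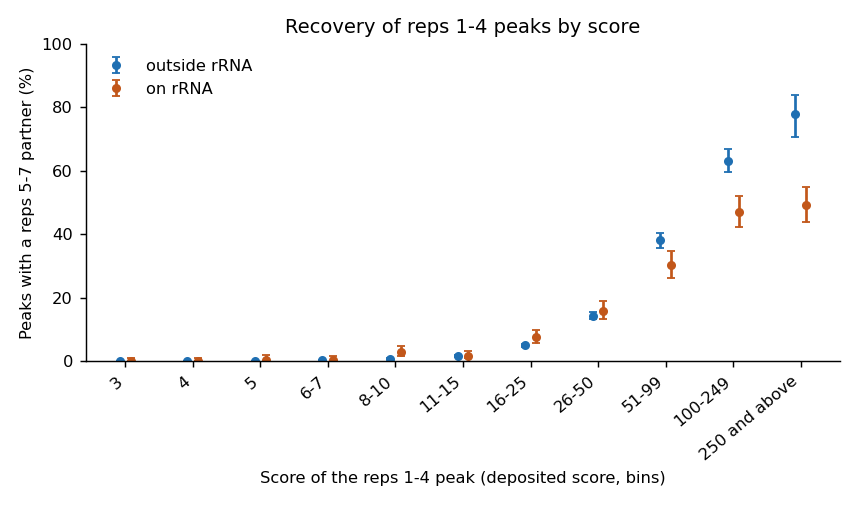
Share of reps 1-4 peaks with a reps 5-7 partner (%), by the deposited score of the reps 1-4 peak, with 95% Wilson intervals, for peaks on rRNA and outside it. Outside rRNA the share climbs to 78.0% at 250 or more, while on rRNA it levels off at 49.4%.

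The reps 5-7 score carried much less of such a trend. Recovery was 85.1% at a reps 5-7 score of 3, 89.7% at 4 and 91.6% at 8 to 10, and lay between 82.9% and 88.4% from 11 to 99. Outside rRNA it was 85.4% at 3, 90.5% at 4, 96.7% at 8 to 10, 93.2% at 11 to 15 and 90.9% at 16 to 25 (40 of 44). On rRNA it was 81.6%, 84.4%, 83.1%, 82.1% and 78.1% in the same bins. Of the 23 reps 5-7 peaks of 100 or more, 12 were recovered. The other 11 were all rRNA peaks, each at most 25 bases from a namesake in reps 1-4, that is, a peak of its own small RNA. The highest was let-7c-5p on mt-Rnr1, the mitochondrial 12S rRNA gene, at chrM:645-646 with a score of 1296, which lay 6 bases from the nearest let-7c-5p peak of reps 1-4.

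Scores of matched peaks moved together across the lists. Over 3160 matched reps 5-7 peaks, each set against its highest-scoring partner, Spearman's rho was 0.65 and Pearson's r of the log10 scores 0.72. These are descriptions across peaks that share libraries and places. The reps 1-4 partner scored a median of 10.7 times as much (quartiles 6 and 17.8). The median ratio was 9.50 in 3' UTRs, 10.8 in CDS, 7.25 in introns and 13.3 on rRNA. The median reps 1-4 score of these pairs ran in the same order, at 27 in introns, 40 in 3' UTRs, 44 in CDS and 110 on rRNA. A pair needs a reps 5-7 score of at least 3, and the median reps 5-7 score of all pairs was 4. This floor and the choice of the highest-scoring partner shape the ratio, so it is no scale factor between the lists. A reps 5-7 peak of score 3 had a partner with a median score of 25 (12 and 46), and one of score 16 to 25 a partner with a median of 311. Only 3 of the 3160 peaks scored higher in reps 5-7 than their partner did in reps 1-4. The same floor and choice of partner keep that count low.

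**Figure D2:**
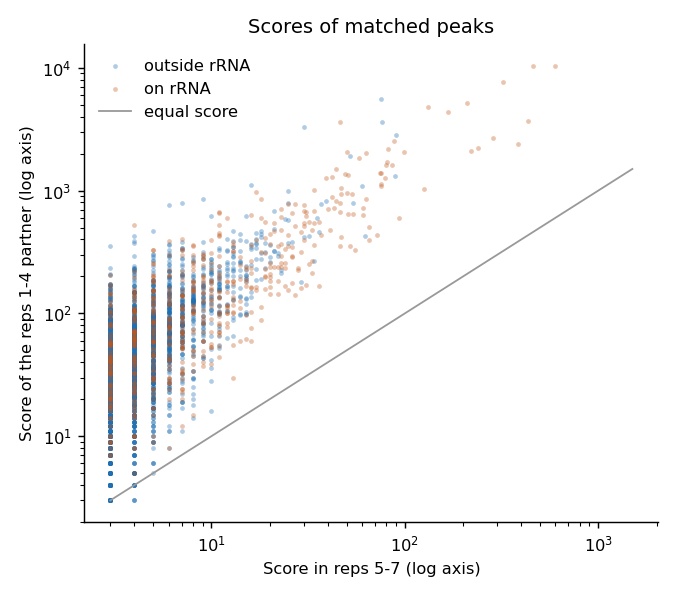
Deposited score of each matched reps 5-7 peak (x axis, log) against that of its highest-scoring reps 1-4 partner (y axis, log), 3160 pairs, coloured by rRNA. Almost all points lie above the line of equal score, at a median ratio of 10.7.

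Among the annotated features with at least 100 reps 5-7 peaks, CDS and 3' UTRs had the highest recovered shares and introns the lowest. Of the reps 5-7 peaks, 92.0% of those in CDS were recovered in reps 1-4 (1038 of 1128, interval 90.3 to 93.5) and 91.1% of those in 3' UTRs (1105 of 1213, 89.4 to 92.6). In the smaller classes it was 40 of 42 in 5' UTRs, 12 of 12 in microRNA hairpins and 9 of 9 in mitochondrial tRNAs. Intronic peaks were recovered in 67.4% (147 of 218, 61.0 to 73.3), a range that lies below those of CDS and 3' UTRs. At a reps 5-7 score of 3 the order held, at 63.2% for introns (91 of 144), 88.9% for 3' UTRs (455 of 512) and 89.0% for CDS (443 of 498).

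Features differ in score, so reps 1-4 peaks were also compared at equal score. The Mantel-Haenszel odds ratio over 11 score bins was used, called where it was at least 2 or at most 0.5 and its 95% interval left out 1. A feature or small RNA with no recovered peak, such as antisense (0 of 282), had no interval and could not be called. Of 15 features with at least 100 reps 1-4 peaks, 2 were called (13.3%). Intronic peaks were recovered less often than others of their score, with an odds ratio of 0.317 (0.265 to 0.380). Peaks in microRNA hairpins were recovered more often, at 4.45 (2.12 to 9.33), from 10 recovered peaks of 250.

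Peaks in 3' UTRs stood above the rest at equal score without reaching the call, at 1.75 (1.60 to 1.91). CDS was close to the other peaks, at 1.08 (0.99 to 1.18). Intergenic peaks, at 0.742, and mitochondrial rRNA, at 0.647, were below 1. With rRNA left out, the called features were again introns and hairpins, 2 of 14 (14.3%). The lincRNA class, which holds Gm42418, passed from 1.03 (0.883 to 1.20) to 0.562 (0.397 to 0.794) when rRNA was left out. At scores of 26 to 99 the recovered shares were 24.8% in 3' UTRs (536 of 2159), 20.5% in CDS (531 of 2596) and 11.3% in introns (56 of 497).

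**Figure D3:**
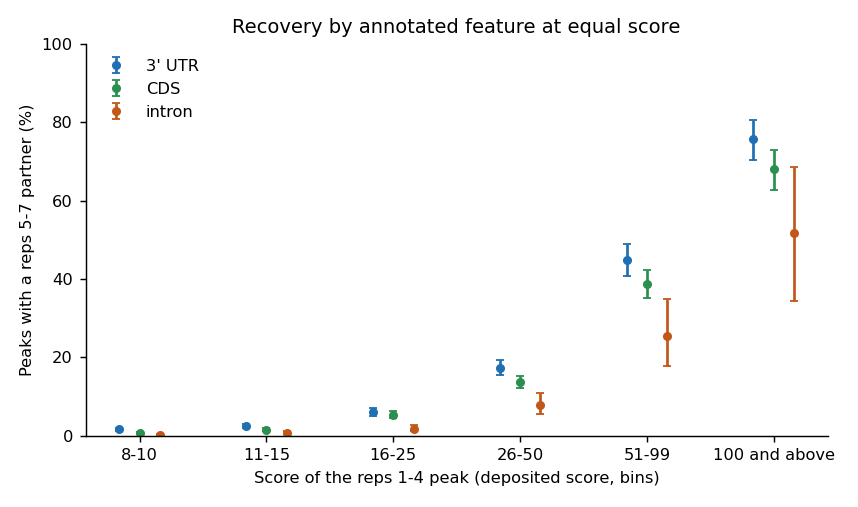
Share of reps 1-4 peaks with a reps 5-7 partner (%) in bins of the deposited score, for 3' UTR, CDS and intron peaks, with 95% Wilson intervals. The intron share is the lowest of the 3 in each bin from 8 to 10 upwards.

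Introns held 47.6% of all reps 1-4 peaks but 4.22% of the recovered ones. Few of them scored high: 0.449% of intronic reps 1-4 peaks scored over 25, against 5.28% in 3' UTRs. Some peaks annotated as intronic run past the end of the annotated intron into its neighbour. Of the reps 5-7 intronic peaks, 51 of 56 that did so were recovered (91.1%), against 96 of 162 that lay wholly inside (59.3%, 51.6 to 66.5). In reps 1-4 the odds ratio at equal score was 0.275 (0.224 to 0.338) for intronic peaks wholly inside and 0.759 (0.520 to 1.11) for those past the end.

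The intronic peaks that did recur were few and named. The highest-scoring reps 1-4 peak of this kind, at 348, was a 1-base miR-124-3p peak in Syt1, the calcium sensor of synaptic vesicle release, at chr10:108690884-108690884. It lies at the edge of its intron, and its reps 5-7 partner, with a score of 13, was annotated as CDS. Further ones were miR-124-3p in Gphn, which encodes the inhibitory synapse scaffold gephyrin, at chr12:78351077-78351079 (score 279), and miR-29b-3p in Camk1d, a calcium and calmodulin dependent kinase, at chr2:5379296-5379315 (score 236). By gene, all 5 reps 5-7 peaks inside introns of Cmss1 and all 5 inside those of Kcnip4, a potassium channel partner, were recovered. In Celf2, a splicing regulator, 3 of 6 were. The recovered reps 1-4 peaks of Cmss1 were not all separate places. Those of miR-29a-3p (chr16:57391648-57391662), miR-29b-3p (chr16:57391650-57391664) and miR-9-5p (chr16:57391650-57391657) overlapped. The 162 peaks were spread over 118 genes, 93 of which had a single one.

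The hairpin peaks are places where a small RNA was joined to the precursor or mature strand of another microRNA or, in 2 of those shown, of its own hairpin. Reps 5-7 had 12, all of them recovered, and RefSeq hairpins gave the sequence under 9. The target stretches below show what was joined, 5′ to 3′, with capitals for letters complementary to the small RNA's bases 2 to 8 or, in Mir99a, 2 to 7.
Mir5099, joined to miR-29b-3p: cuuagaucgaugUGGUGCUc
Mir99a, joined to miR-127-3p: aacccguaGAUCCGaucuug
Mir128-1, joined to miR-128-3p: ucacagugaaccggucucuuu
Mir668, joined to miR-668-3p: agugugccucgggugag
Mirlet7c-1, joined to miR-30c-5p: uugagguaguagguuguaugg
Only in the first of the 9 stretches did a script find the full complement of bases 2 to 8, and only in Mir99a that of bases 2 to 7, a description of these letters in these windows. On mm10 the Mir5099 stretch lies at chr12:36816249-36816268 and scored 3 in reps 5-7 and 6 in reps 1-4. The Mir99a stretch lies at chr16:77598940-77598959, scored 3 and 12, and falls inside mature miR-99a-5p. The miR-668-3p peak on the 5p arm of its own hairpin, at chr12:109734736-109734752, had the highest scores of the 12, at 34 in reps 5-7 and 269 in reps 1-4. In Mir128-1 (chr1:128202404-128202424, scores 3 and 43) the stretch was the mature miR-128-3p sequence itself, joined to miR-128-3p. The stretch at Mirlet7c-1 (chr16:77599671-77599691) scored 5 and 49 and covers 20 of the 22 bases of let-7c-5p.

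The small RNAs of the short list recurred almost as a whole. Of 175 small RNA names in reps 5-7, 174 were also in reps 1-4 and 167 had at least 1 recovered peak. The one absent was miR-200b-3p, with 1 peak. Of the 8 without a recovered peak, miR-195a-5p had 2 peaks and the others 1 each. Reps 1-4 had 572 further names, which together made 1.73% of its peaks (4249). Those with the most were miR-329-3p (138 peaks, highest score 11), miR-495-3p (130, 22), miR-19b-3p (109, 39), miR-376b-3p (108, 28) and miR-212-3p (107, 47).

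Among the 44 small RNAs with at least 10 reps 5-7 peaks, the share recovered in reps 1-4 ran from 5 of 10 for miR-300-3p to all, with a median of 86.5%. The interval left out the overall 87.5% for 3 of them. With 44 intervals of 95%, a few would do so through counting error alone, so 3 is no clear excess. miR-29a-3p was above the overall share, at 92.9% (184 of 198, 88.5 to 95.7). Below it were miR-126a-3p, the endothelial microRNA, at 70.8% (17 of 24, 50.8 to 85.1) and miR-300-3p. All peaks were recovered for miR-129-2-3p (19 of 19), miR-328-3p (15 of 15) and miR-99a-5p (15 of 15).

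The leading small RNA, miR-124-3p, was recovered in 86.1% of its reps 5-7 peaks (876 of 1017, 83.9 to 88.1). The next were miR-9-5p at 90.4% (330 of 365) and miR-26a-5p at 90.8% (227 of 250). After miR-29a-3p (above) came miR-29b-3p at 87.4% (139 of 159), miR-128-3p at 86.7% (130 of 150), let-7c-5p at 87.3% (103 of 118) and miR-125b-5p at 83.5% (81 of 97). From let-7a-5p to let-7b-5p, ranked 9 to 15, the share lay between 80.8% for miR-138-5p (42 of 52) and 88.1% for let-7a-5p (59 of 67). The intervals of these neighbours overlap.

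At equal score in reps 1-4, 2 of 106 small RNAs with at least 100 peaks were called (1.89%), miR-379-5p with an odds ratio of 2.96 (1.19 to 7.36) and miR-126a-5p with 3.60 (1.27 to 10.2). Both rested on few peaks, 8 of 248 and 7 of 212. None of the miR-126a-5p peaks recovered lay outside rRNA, and only 2 of miR-379-5p did. With rRNA left out, the 2 called of 96 (2.08%) were others, miR-219a-5p at 2.31 (1.03 to 5.2, 8 peaks recovered) and miR-328-3p at 2.83 (1.27 to 6.29, 9 peaks recovered).

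Below the call, the miR-29 family was the clearest departure from 1 among the leading small RNAs. Its 3 members together had an odds ratio of 1.44 (1.26 to 1.64), with miR-29a-3p at 1.62 (1.35 to 1.93) and miR-29b-3p at 1.37 (1.12 to 1.67). miR-29c-3p, of the same seed, was at 0.923 (0.645 to 1.32), and the difference within the family was not tested. miR-124-3p, at 0.908 (0.830 to 0.994), and miR-9-5p, at 0.869 (0.763 to 0.990), lay just below 1. With rRNA left out, miR-9-5p was at 0.918 (0.799 to 1.06), an interval that includes 1, and miR-124-3p at 0.906 (0.822 to 0.997). With finer score bins miR-124-3p was at 0.918 (0.838 to 1.005). The let-7 seed family, with 9 members in reps 5-7, was at 1.05 (0.921 to 1.20).

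**Figure D4:**
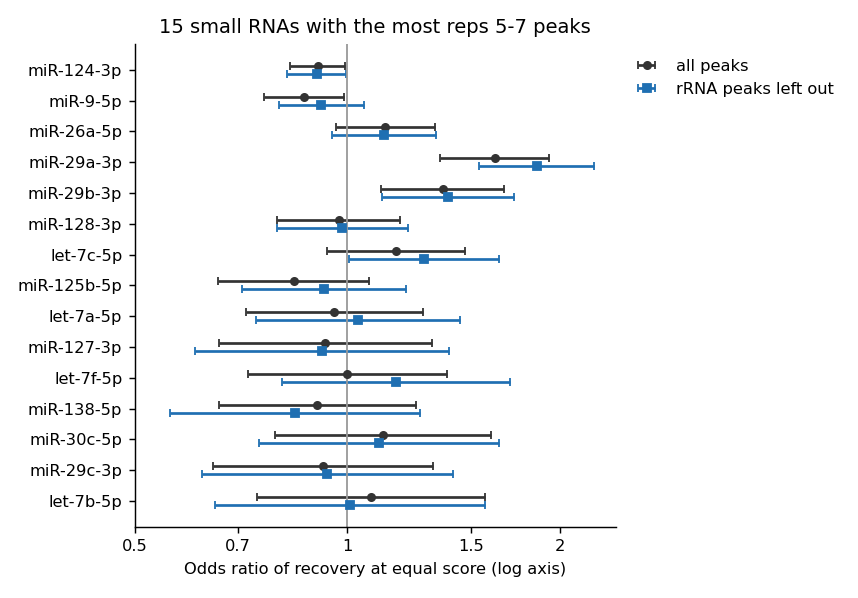
Mantel-Haenszel odds ratio of recovery of reps 1-4 peaks at equal score (log axis) for the 15 small RNAs with the most reps 5-7 peaks, with 95% intervals, for all peaks and with rRNA peaks left out. miR-29a-3p and miR-29b-3p lie to the right of 1 in both.

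By gene, recurrence was higher than by peak, as 1 recovered peak is enough for a gene to count. Of 1465 genes with a reps 5-7 peak, 1356 had a recovered one (92.6%, 91.1 to 93.8), and 1462 had some reps 1-4 peak. A recovered peak was present in 514 of 518 genes with 2 or more reps 5-7 peaks and in 842 of 947 with 1. The latter share, 88.9%, equals that of reps 5-7 peaks outside rRNA. The 3 genes with no reps 1-4 peak by symbol were Panx3, Gm24049 and Itpa-ps1. Both Gm24049 peaks were recovered at their place under another annotation.

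Seen from reps 1-4, recovery of a gene followed the score of its highest peak outside rRNA. Genes whose highest score was 3 had a recovered peak in 3 of 1516 cases. The share was 27.1% at 26 to 50 (345 of 1275), 61.1% at 51 to 99 (421 of 689) and 88.0% from 100 up to 250 (278 of 316). It was 97.1% at 250 or more (68 of 70). In 886 of the 1458 genes with peaks in both lists outside rRNA (60.8%), the gene's highest reps 1-4 peak was itself recovered.

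**Figure D5:**
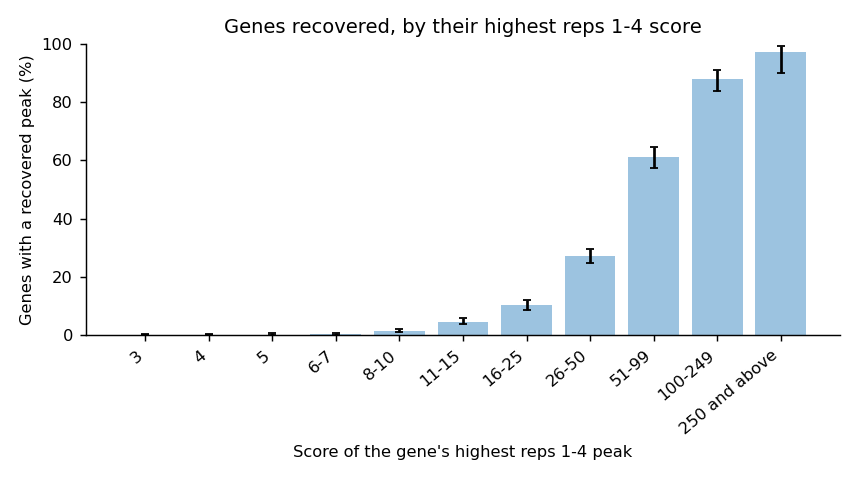
Share of reps 1-4 genes with a recovered peak (%), rRNA left out, by the score of the gene's highest reps 1-4 peak, with 95% Wilson intervals. The share passes from 27.1% at 26 to 50 to 97.1% at 250 or more.

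The 20 genes outside rRNA with the most recovered peaks had varied roles, and 2 of them were long noncoding RNA genes. Slc1a2, the main astrocytic glutamate transporter, had 24 of 27 reps 5-7 peaks recovered, of 14 small RNAs and mostly in its 3' UTR (22 peaks). Its highest were miR-30e-5p at chr2:102781641-102781654, with a score of 18 in reps 5-7 and 192 in reps 1-4, and miR-26a-5p at chr2:102781547-102781563, with 17 and 366. A further peak, miR-9-5p in its CDS at chr2:102735998-102736016, scored 13 and 349. Sparcl1, an astrocyte-secreted matrix protein, had 17 of 17 recovered, 14 of them in CDS. Its miR-9-5p peak at chr5:104087067-104087073 scored 89 and 1303. Cpe, a peptidase that processes neuropeptide precursors, had 10 of 10, with miR-9-3p in the 3' UTR at chr8:64593094-64593111 (18 and 312).

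Among neuronal genes, Camk2a, the alpha subunit of calcium and calmodulin dependent kinase II, had 21 of 24 recovered, 15 of the 24 in CDS. Its highest, a miR-124-3p peak in CDS, scored 39 in reps 5-7 and 830 in reps 1-4. Camk2n1, an inhibitor of the same kinase, had 10 of 10, led by miR-22-3p at chr4:138457157-138457170 (35 and 602). Map2, a dendritic microtubule protein, had 17 of 17, with miR-26a-5p in the 3' UTR at chr1:66439817-66439835 (23 and 227) and miR-124-3p in CDS at chr1:66412528-66412546 (17 and 277). Syt1 had 12 of 15 and Bsn, the presynaptic scaffold bassoon, 10 of 11. Bsn's leading peak was miR-124-3p at chr9:108099110-108099126 (15 and 386).

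Cytoskeletal and membrane genes recurred without loss in several cases. Sptbn1, a spectrin, had 18 of 18 recovered, with miR-138-5p in CDS at chr11:30100588-30100642 (11 and 198). Ank2, the spectrin-binding ankyrin B, had 10 of 10, among them miR-128-3p at chr3:127010956-127010981 (17 and 451) and miR-125b-5p at chr3:126934548-126934564 (15 and 616). The calcium pump gene Atp2b2 and the microtubule protein gene Map1b had 9 of 9 each, as had Lars2, which encodes the mitochondrial leucyl-tRNA synthetase. March6, a ubiquitin ligase of the endoplasmic reticulum, had 8 of 9.

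Ids, the lysosomal iduronate sulfatase, had 11 of 12 recovered, all in its 3' UTR. Its miR-124-3p peak at chrX:70344137-70344137 scored 90, and the partner 2837. A miR-7a-5p peak at chrX:70344170-70344190 scored 21 and 325. The long noncoding RNAs 1700020I14Rik and Malat1 had 22 of 25 and 18 of 25. In 1700020I14Rik, miR-29b-3p (12 and 224) and miR-29a-3p (10 and 209) overlapped, offset by 1 base, at chr2:119604636-119604653 and chr2:119604637-119604654.

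Mitochondrial genes of respiratory complex I were also among the 20 leading genes. mt-Nd5 had 10 of 11 recovered, with miR-138-5p at chrM:13154-13173 (25 and 796). mt-Nd2 had 10 of 16 and mt-Nd1 8 of 11, lower shares than most of the other leading genes. On rRNA, Gm42418 had 217 of 257 recovered, mt-Rnr1 143 of 185 and mt-Rnr2 115 of 149.

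Marker lists of forebrain cell types gave the members below, by whether the gene had a recovered peak. In the astrocyte list 10 of 11 genes did, all but Gfap, with 74 of 80 reps 5-7 peaks recovered (92.5%). In the excitatory neuron list 2 of 8 did, Camk2a and Slc17a7, with 22 of 25 peaks, 21 of the 22 in Camk2a. The remaining 6, among them Neurod2 and Tbr1, had no reps 5-7 peak, and their highest reps 1-4 scores lay between 7 and 61. In the inhibitory neuron list Gad1 (3 peaks) and Gad2 (1 peak) were recovered, 2 of 7 genes. In the oligodendrocyte list 3 of 10 genes had a recovered peak, with 11 of 13 reps 5-7 peaks recovered. Mbp had 3 of 4 recovered and Cnp 1 of 1. The rest of that list, beyond the 3, had no reps 5-7 peak.

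At equal score, the odds ratio of recovery of reps 1-4 peaks was 1.99 (1.49 to 2.66) for the astrocyte list and 5.81 (1.57 to 21.5) for the inhibitory neuron list, the latter from 4 recovered peaks of 96. It was 0.728 (0.452 to 1.17) for the excitatory neuron list and 0.809 (0.367 to 1.79) for the oligodendrocyte list. Peaks of 1 gene are counted separately here. Camk2a alone held 524 of the 665 reps 1-4 peaks of the excitatory neuron list and 23 of the 24 recovered. That value is thus mostly of 1 gene. Slc1a2 held 716 of the 1800 reps 1-4 peaks of the astrocyte list. The 7 vascular genes had no reps 5-7 peak, so 0 of their 117 reps 1-4 peaks were recovered, against 1.34% of all reps 1-4 peaks. Their highest score was 42 (Pdgfrb), so this count is near the background. In bulk tissue, fewer cells of a type and less RNA per cell cannot be told apart.

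The strongest recurring places outside rRNA were not all in known genes. The highest-scoring reps 1-4 peak with a partner was miR-26a-5p in an intergenic stretch at chr3:5860631-5860636, with a score of 5596 against 75 in reps 5-7. This stretch, from 5860466 to 5860824 of chromosome 3, held 362 reps 1-4 peaks of 213 small RNAs, and 20 of its 22 reps 5-7 peaks were recovered. Whether the stretch holds rRNA-like sequence was not tested. Next came miR-124-3p in the 3' UTR of the protocadherin gene Pcdh1 (3591 and 76) and in Ids (above). Further recurring peaks were let-7f-5p in CDS of Ttyh1, a membrane protein gene, at chr7:4122542-4122550 (1100 and 60), and miR-9-5p in CDS of the microtubule protein gene Clasp2 at chr9:113899526-113899536 (983 and 25). A miR-26a-5p peak in the 3' UTR of Larp1, an RNA-binding protein gene, at chr11:58061166-58061179 scored 862 but only 9 in reps 5-7. In the Cdr1 interval of chromosome X, 26 of 34 reps 5-7 peaks were recovered among 329 reps 1-4 peaks.

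Of the 806 reps 1-4 peaks of score 100 or more outside rRNA, 274 had no partner. They lay in CDS (100), intergenic stretches (70), 3' UTRs (65), lincRNAs (16) and introns (14), and 87 of them were at most 25 bases from a reps 5-7 namesake. The highest were 2 miR-124-3p peaks of Pcdh1, of 3539 and 3505, which lay 10 and 5 bases from its reps 5-7 peak. The next, miR-26a-5p in the intergenic stretch of chromosome 3 (3041), lay 48 bases from one. The 1-base miR-9-5p peak in Sparcl1 at chr5:104087065-104087065 (1307) lay 1 base from one. Of the 204 in genes, 168 were in a gene with some reps 5-7 peak. The others were 36 peaks in 35 genes, led by miR-124-3p in Ppp2r1a, a phosphatase scaffold gene, at chr17:20951382-20951385 (264) and miR-26a-5p in Hectd2, a ubiquitin ligase gene, at chr19:36618848-36618861 (203).

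The 451 reps 5-7 peaks that were not recovered were of unlike kinds on rRNA and outside it. On rRNA, 120 of 129 lay at most 25 bases from a reps 1-4 namesake, all 129 overlapped a peak of another small RNA, and their median width was 6 bases. Outside rRNA, 143 of 322 lay that near, 161 lay over 100 bases away or had none, and 173 overlapped no reps 1-4 peak of any small RNA. Introns gave 71 of the 322, of which 53 overlapped no peak of any small RNA and 53 had a score of 3. The highest outside rRNA was miR-124-3p in CDS of Syt1 at chr10:108642375-108642375, with a score of 27, 3 bases from its nearest namesake.

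A few of these peaks were held by the excitatory neuron list in place of reps 1-4. That list, from an antibody against myc, shares 3 library numbers with reps 5-7. Of the recovered reps 5-7 peaks outside rRNA, 13.1% (336 of 2572) overlapped an excitatory peak of the same small RNA, and of those not recovered 4.35% (14 of 322). At chr16:21392580-21392599, on the minus strand and annotated as intergenic, reps 5-7 had peaks of 10 small RNAs and the excitatory list 9, while reps 1-4 and control IgG had 0. The reps 5-7 scores were highest for miR-26a-5p (19) and miR-16-5p (16) and lay between 3 and 7 for the other 8, and the excitatory scores were 20 for miR-26a-5p and 4 to 7 for the others. RefSeq places the long noncoding RNA genes Gm36224 and Gm36150 over this place. An intron of Panx3, a pannexin gene, was similar: at chr9:37663674-37663692 reps 5-7 had 3 peaks, led by miR-124-3p at 10, the excitatory list 6, led by miR-124-3p at 46, and reps 1-4 and IgG 0. Whether the shared library numbers play a part was not tested.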

How the data were processed

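Peaks of chimeric reads from 7 anti-Ago2 forebrain libraries were used. Per the calling summaries and the submitters' processing notes, the authors called peaks on mm10 over the pooled libraries of each list, with at least 3 reads in at least 2 libraries (of 4 in reps 1-4, of 3 in reps 5-7). The sources used here name neither aligner nor caller. The deposited score is a whole number that the authors gave each peak, not scaled to library size, and its definition is not stated. Depth per library was not given, and the scores sum to 2185467 over reps 1-4 and to 31821 over reps 5-7.

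Matching, Wilson intervals and Mantel-Haenszel odds ratios (interval of Robins, Breslow and Greenland) were computed in Python 3.11.15 with pandas 2.3.3, numpy 2.4.6 and scipy 1.17.1, and figures with matplotlib 3.10.9. The matching was checked against bedtools 2.31.1 and the odds ratios were tested on simulated data. Reads were amplified without molecular identifiers. Intervals cover counting error only, since each list is 1 pooled observation. Gene symbols and features are those of the deposited annotation, and positions are 1-based. The comparison, the gene lists and the rules were chosen with earlier results of these data known. Small RNAs named are the 15 with the most reps 5-7 peaks and those called. Genes named are the 20 outside rRNA with the most recovered peaks, the 10 highest-scoring peaks with and without a partner, genes with at least 3 reps 5-7 peaks and none recovered, and members of the cell type lists with a reps 5-7 peak, some of which are not reported here. The small RNAs with extreme shares, those only in reps 1-4, the intronic and hairpin peaks and the chromosome 16 place were named after their values were seen.

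The alternatives were other overlaps, other small RNA identities, peaks left out (rRNA, IgG, all but CDS and UTRs), score thresholds and finer score bins. Seed matches in the peaks at large were not computed, since no genome of the build was used here.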

Additional observations from a re-analysis of the deposited data

Results flagged for a closer look

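Outside rRNA, 14 reps 5-7 peaks without a reps 1-4 partner overlapped an excitatory peak of the same small RNA, and 0 overlapped an IgG peak. They are listed here because the excitatory list is outside the comparison of the 2 anti-Ago2 lists. The chromosome 16 place described above gave 6 of them: miR-26a-5p (score 19), miR-16-5p (16), miR-139-5p (7), miR-127-3p and miR-30c-5p (4 each) and miR-124-3p (3). The others included miR-124-3p in the mitochondrial gene mt-Nd4l (19), the kinesin gene Kif5a (11), the Panx3 intron (10) and Fbxl16 (6), and let-7a-5p in Cdk5r2 (5).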

How the results depend on the processing

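Recovery of reps 5-7 peaks, of reps 1-4 peaks and of reps 1-4 peaks of score 100 or more was 45.3%, 0.664% and 21.1% with a reciprocal overlap of 50%, and 94.8%, 1.71% and 79.4% where peaks up to 25 bases apart also counted. It was 95.2%, 6.31% and 87.1% with any small RNA. With small RNAs of 1 seed merged, where the RefSeq table held the name, it was 89.6%, 2.15% and 63.9%. It was 88.9%, 1.09% and 66.0% without rRNA, and 91.3%, 2.12% and 70.8% in CDS and UTRs alone. Leaving out peaks over IgG peaks gave 1.28% for reps 1-4 peaks. Only 43.1% of reps 5-7 peaks had a partner among the highest-scoring reps 1-4 peaks, as many as reps 5-7 holds. The intron odds ratio was 0.0792 with any small RNA. That of 3' UTRs was 2.01 with reciprocal overlap and 1.14 with any small RNA. miR-29a-3p was at 2.01 with reciprocal overlap. miR-124-3p was at 0.819 with it and 0.997 in CDS and UTRs alone. Features called numbered 5 with reciprocal overlap and 10 with any small RNA, and small RNAs called 4 with reciprocal overlap. Spearman's rho was 0.586 without rRNA, and gene recurrence 94.7% from CDS and UTR peaks alone. The cause of these shifts was not tested beyond what each rule changes by its construction. The odds ratios of introns, 3' UTRs, hairpins and miR-29a-3p stayed on their side of 1 under the alternatives run for them. That of miR-124-3p stayed below 1. Its interval included 1 with finer score bins (0.838 to 1.005) and in CDS and UTRs alone (0.896 to 1.11). Over all features and small RNAs, leaving out rRNA moved 1 of 14 features, lincRNA, and 19 of 96 small RNAs to the other side of 1, among them miR-126a-5p, which then had no recovered peak. Intronic peaks wholly inside the intron and the gene alternatives were added after seeing the data. No paired analysis was possible because each list pools its libraries, and for the same reason no replicate could be left out. The seed match alternative was not run. Scores of 3, the lowest in either list, limit what a missing partner shows at low score.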
